A study of Mus musculus with 12 samples.

Results

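The genes described here are 10 components of the Nodal and Activin signalling pathway, taken by their symbols from a deposited table of 47729 mouse genes: the ligand genes Nodal and Gdf3, the co-receptor gene Tdgf1, the receptor gene Acvr2b, the signal transducer genes Smad2 and Smad3, and the inhibitor genes Lefty1, Lefty2, Smad7 and Skil. Messenger RNA was sequenced in 12 libraries of E14Tg2a embryonic stem cells, a mouse line of the 129/Ola strain. The cells were delta 0.7 cells (called delta here), in which a regulatory region of Tcf15 had been deleted from both alleles, or wild type (WT). Both genotypes were collected in serum-free 2i medium with LIF (0 h), a medium that holds cells in the naive state, and 12 and 24 h after plating on fibronectin in medium of N2B27, KOSR, Activin and bFGF, which starts conversion to epiblast-like cells. Each of the 6 groups of genotype and time held 2 libraries. All delta columns of the table carry the tag of a single line, so the deletion and that line cannot be told apart. The labels do not say that replicates were separate cultures, so p-values measure only the spread between these libraries, which may be technical.

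Nodal and Activin are secreted ligands of the TGF-beta superfamily. They bind type II receptors (ACVR2A, ACVR2B) and the type I receptor ACVR1B, which phosphorylates SMAD2 and SMAD3; these join SMAD4 and, with partners such as FOXH1, switch on target genes. Nodal also needs a co-receptor of the EGF-CFC family, of which Cripto (the product of Tdgf1) is the one known from embryonic stem cells, whereas Activin does not. LEFTY1 and LEFTY2 bind Nodal or its co-receptor and block the signal, and their genes are themselves targets of SMAD2 and SMAD3. In the mouse embryo the pathway keeps the epiblast pluripotent before it directs formation of mesoderm and endoderm. The induction medium contained added Activin at 12 and 24 h.

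Pairs of very similar genes stand among these genes, and the sequences show what a short read has to tell apart. Lefty1 (ENSMUSG00000038793, chr1:180935022-180938400) and Lefty2 (ENSMUSG00000066652, chr1:180893108-180899103), both on the plus strand of GRCm38 (mm10), differ at 90 of 1107 aligned coding bases (91.9% identity), and the longest identical run is 140 bases. The processed pseudogene Tdgf1-ps1 (ENSMUSG00000095834, chr16:3730510-3731022, plus strand) differs from the coding sequence of Tdgf1 (ENSMUSG00000032494, chr9:110939603-110946158, minus strand) at 7 of 513 aligned bases (98.6% identity), with a longest identical run of 154 bases. The stretches below are from GENCODE M21 transcripts, 5′ to 3′, and were chosen as the 120 coding bases of each pair with the most differences, counted from the start codon (bases 46 to 165 for the Lefty pair and 394 to 513 for the Tdgf1 pair). Capitals mark the bases that differ within a pair, 34 in the Lefty pair and 4 in the Tdgf1 pair.
Lefty1: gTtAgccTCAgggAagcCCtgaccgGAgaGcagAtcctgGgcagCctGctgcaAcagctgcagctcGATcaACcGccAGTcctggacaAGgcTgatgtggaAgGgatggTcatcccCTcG
Lefty2: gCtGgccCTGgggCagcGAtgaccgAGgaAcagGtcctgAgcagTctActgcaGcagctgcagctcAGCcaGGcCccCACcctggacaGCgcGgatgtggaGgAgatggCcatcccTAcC
Tdgf1: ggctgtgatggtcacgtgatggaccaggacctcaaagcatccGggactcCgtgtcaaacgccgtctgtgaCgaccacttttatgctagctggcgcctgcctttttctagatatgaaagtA
Tdgf1-ps1: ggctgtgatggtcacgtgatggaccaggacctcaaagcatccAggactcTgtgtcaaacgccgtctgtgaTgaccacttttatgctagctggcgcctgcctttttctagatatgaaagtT
The capitals run along the whole Lefty stretch, while the Tdgf1 pair is identical over most of its own. The sources used here do not give how reads that match both copies were counted, so the values of Lefty1, Lefty2 and Tdgf1 may hold reads of their copies.

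Depth, recovered from the steps of the FPKM values, was 9740851 to 17571255 reads per library. The depth implied by the FPKM scale was 75.5% of these reads in delta 0 h replicate 1 and 92.2% in WT 0 h replicate 1. It was 99.7% to 107% in the other 10 libraries. FPKM of both 0 h replicate 1 libraries therefore stand higher than scaling to recovered reads would give. Tcf15, the gene whose regulatory region was deleted, was lower in delta than in WT cells (averaged log2 difference −3.27 ± 0.27 SE, limma adjusted p = 0.0050). The difference was −1.40 at 0 h, which did not pass, −4.34 at 12 h (limma adjusted p = 0.047) and −4.06 at 24 h (0.083). With the replicate number as a block the Tcf15 difference at 24 h passed (limma adjusted p = 0.0012). Markers of the cell state moved with time in both genotypes: summed FPKM of 8 naive markers was 351 to 499 at 24 h, against 1005 to 1168 at 0 h, and that of 6 formative epiblast markers was 337 to 525 at 24 h, against 30.7 to 37.3 at 0 h. Of the 8 naive markers Nr0b1 went the other way, from 34.1 to 62.7 FPKM at 0 h to 107 to 157 at 24 h. Zfp42 was at 257 to 731 FPKM at 0 h and 161 to 233 at 24 h, and was not called in either genotype (limma). Both replicate 1 libraries at 0 h stood apart from their partners. Ribosomal protein genes took 12.4% of reads in delta 0 h replicate 1 and 10.5% in WT 0 h replicate 1, against 5.33% to 6.94% in the other 10 libraries, and the log2 difference between replicates had an SD over all tested genes of 0.83 (delta) and 0.66 (WT) at 0 h, against 0.31 to 0.42 later. The share of mitochondrially encoded genes was 0.447% to 0.647% in the replicate 1 libraries of all groups and 1.80% to 2.87% in those of replicate 2. Summed FPKM of 7 fibroblast and feeder markers was 19.8 to 46.6 in the 3 WT replicate 1 libraries and 1.76 to 6.90 in the other 9, and that of 7 primitive endoderm markers was 0.640 to 5.05 in all 12, with Gata4, Gata6 and Sox17 below 1 FPKM in each.

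All 10 pathway genes were measured in every library. They passed the filter of at least 1 FPKM (fragments per kilobase of gene, on each library's deposited scale) in at least 2 libraries. In all, 13981 genes did so. Levels spanned a wide range. Mean FPKM over the 12 libraries was 161 for Tdgf1, 54.8 for Lefty2, 50.1 for Gdf3, 40.5 for Lefty1, 35.5 for Nodal, 21.4 for Smad7, 15.4 for Smad2, 12.3 for Skil, 8.59 for Acvr2b and 3.72 for Smad3. Between each neighbouring pair in that order the ranges over libraries overlapped. Tdgf1 stood above 97.6% of the tested genes and Smad3 above 36.7%. The lengths behind the FPKM of Acvr2b (1753 bases) and Smad2 (3549 bases) were shorter than those of GENCODE M21 (3928 and 8781 bases), so their place in the order depends on the annotation used.

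**Figure D1:**
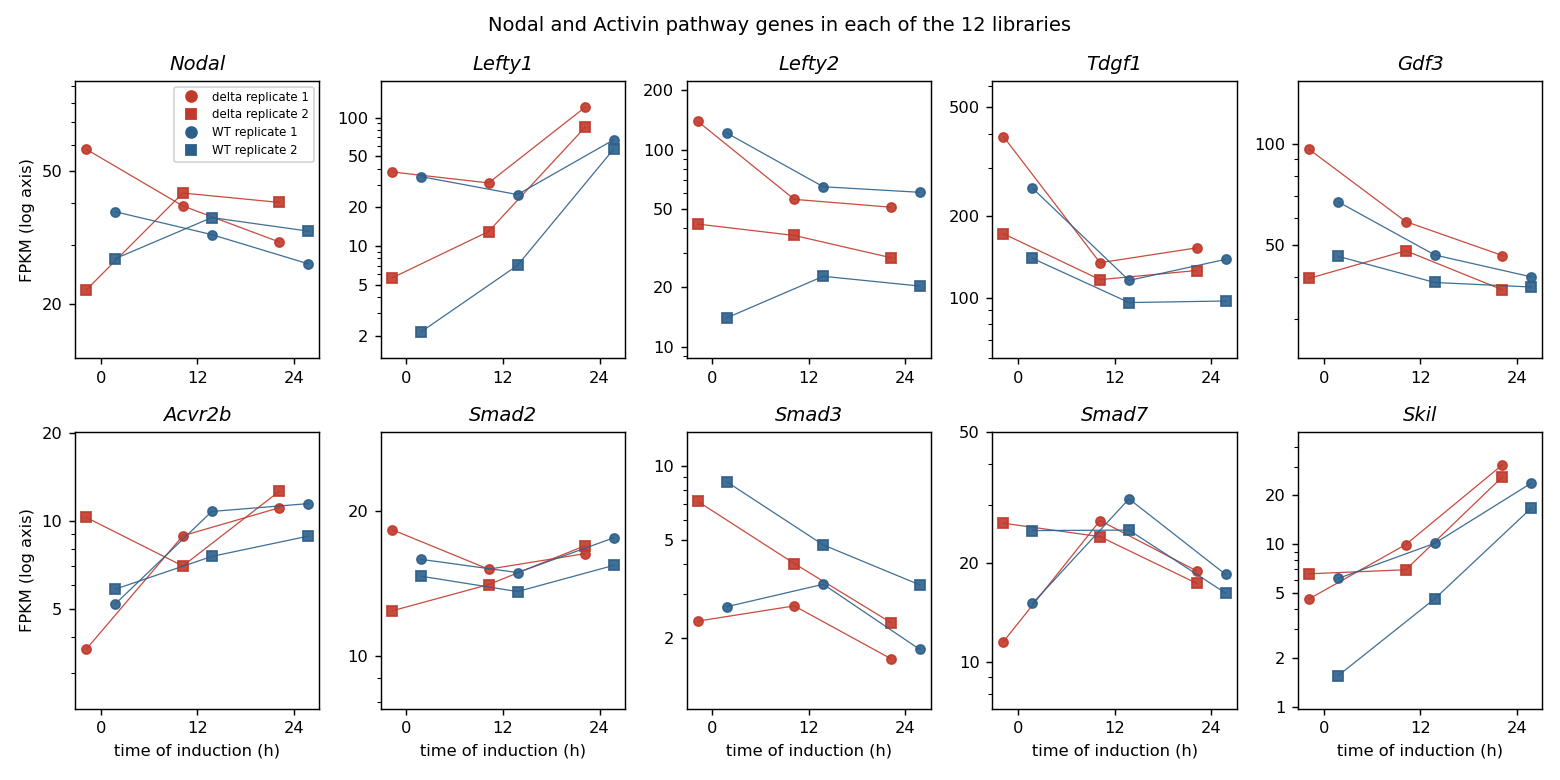
FPKM (log axis) of the 10 pathway genes in each of the 12 libraries against the time of induction in hours; red is delta, blue is WT, circles are replicate 1, squares are replicate 2, and lines join libraries of the same genotype and number. Skil and Lefty1 end above both of their 0 h libraries in each genotype, and the replicates of Lefty1 and Lefty2 lie far apart at 0 h.

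The first question was how the pathway genes moved during induction. Skil, which encodes a nuclear co-repressor of SMAD complexes, rose in both genotypes by 24 h. Without a replicate block it was the 1 gene of the 10 to pass in either (limma on log2(FPKM + 1), adjusted p under 0.05 over all genes). Of all tested genes, 15.4% were called in this comparison in delta cells and 10.2% in WT cells. With the replicate number as a block, Lefty1 also passed at 24 h in both genotypes, and Tdgf1 in delta. Of all tested genes 21.2% were then called in delta and 15% in WT. The median log2 difference of the 10 genes was 0.01 in delta and −0.14 in WT, beside −0.05 and −0.03 over all tested genes. By 12 h none of the 10 had passed without the block, with 7% of all genes called in delta and 4.03% in WT. With the block Tdgf1 passed by 12 h in delta, where 11.5% of all genes were called. Between 12 and 24 h none passed, with 1.36% of all genes called without the block in delta and 0.408% in WT. At an unadjusted p under 0.05, 1 of the 10 (Tdgf1) passed by 12 h in delta and none did in WT, where 23.4% and 16.8% of all tested genes did so. Likewise 1 (Skil) passed between 12 and 24 h in each genotype, where 9.72% of all genes did so in delta and 7.8% in WT. The fit with voom weights called 0 of the 10 in each of these 4 comparisons. Counted by overlap of libraries, 3 of the 10 were higher and 2 lower in both libraries at 24 h than in both at 0 h in delta cells (all genes, 24.8% and 26.7%), and 3 and 2 in WT cells (24.3% and 27.4%), shares close to the background. At 12 h against 0 h these counts were 1 and 1 in delta (24.4% and 24.3%) and 2 and 1 in WT (22.2% and 25.8%), and at 24 h against 12 h they were 4 and 3 in delta (24.9% and 28.9%) and 3 and 2 in WT (21.2% and 24.2%). These are bulk libraries, in which fewer cells of a type and less RNA per cell cannot be told apart. A fold on the log2(FPKM + 1) scale understates the change of low genes.

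Among the ligand genes, Nodal (ENSMUSG00000037171, chr10:61417972-61425338) was present at every time. In delta cells Nodal stood at 58.1 and 22.0 FPKM at 0 h, 39.3 and 43.0 at 12 h, and 30.7 and 40.3 at 24 h. In WT cells it stood at 37.8 and 27.3 FPKM at 0 h, 32.3 and 36.3 at 12 h, and 26.4 and 33.0 at 24 h. The 24 h libraries lay within or close to the span of the 0 h ones in both genotypes, replicate 1 being lower and replicate 2 higher at 24 h than at 0 h. The log2 difference from 0 to 24 h was −0.03 ± 0.38 (SE, limma adjusted p = 0.97) in delta and −0.12 ± 0.38 (adjusted p = 0.89) in WT. Without both 0 h replicate 1 libraries, which leaves 1 library in each 0 h group, it was 0.65 in delta and 0.11 in WT. The difference from 0 to 12 h in delta, 0.19 in the fit with all libraries (limma adjusted p = 0.78), was then 0.87. From 12 to 24 h Nodal was lower in all 4 same-numbered sets, by a fitted log2 difference of −0.22 ± 0.38 in delta and −0.21 ± 0.38 in WT (limma adjusted p = 1 for both), which did not pass.

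Gdf3 (ENSMUSG00000030117, chr6:122605403-122610087, minus strand), a TGF-beta ligand of the early embryo that acts through the same co-receptor, was 96.3 and 39.7 FPKM at 0 h, 58.6 and 48.0 at 12 h, and 46.4 and 36.7 at 24 h in delta cells. In WT cells Gdf3 was 67.1 and 46.2 FPKM at 0 h, 46.6 and 38.6 at 12 h, and 40.1 and 37.4 at 24 h. Both WT libraries at 24 h lay below both at 0 h, while the delta libraries overlapped. The log2 difference was −0.57 ± 0.37 in delta (limma adjusted p = 0.33) and −0.51 ± 0.37 in WT (adjusted p = 0.45), short of the threshold. In delta cells it depended on a single library, being −1.20 without delta 0 h replicate 2 and 0.06 without delta 0 h replicate 1. Either fit left 1 library in the delta 0 h group.

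Tdgf1, the co-receptor gene, had the highest level of the 10 and was lower after induction in every library. In delta cells Tdgf1 stood at 390 and 171 FPKM at 0 h, 134 and 116 at 12 h, and 152 and 126 at 24 h. In WT cells it stood at 252 and 139 FPKM at 0 h, 116 and 95.8 at 12 h, and 138 and 97.1 at 24 h. All 8 libraries at 12 and 24 h lay below both 0 h libraries of their genotype, and most of the difference was there by 12 h. The log2 difference at 12 h was −1.04 ± 0.41 in delta (limma adjusted p = 0.16) and −0.83 ± 0.41 in WT (adjusted p = 0.36), and at 24 h it was −0.90 ± 0.41 (adjusted p = 0.17) and −0.69 ± 0.41 (adjusted p = 0.35), so none passed. With the replicate number as a block the fall in delta passed at 12 h (adjusted p = 0.037) and at 24 h (adjusted p = 0.040), and that in WT did not (adjusted p = 0.10 and 0.11). In both 0 h replicate 1 libraries ribosomal protein genes were high. Without these libraries the 24 h difference was −0.31 in delta and −0.26 in WT. The part of the ribosomal share in this difference was not tested. Without delta 0 h replicate 2 the 24 h difference was −1.49 in delta. All these fits left a 0 h group with 1 library.

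Tdgf1-ps1 was listed at 19.3 to 92.9 FPKM. Its FPKM was 19.9% to 26.6% of that of Tdgf1 in every library, with no group apart from the rest. The lengths behind these FPKM were 516 bases for Tdgf1-ps1 and 2622 for Tdgf1. In reads, a library held 113 to 430 for Tdgf1-ps1 and 2509 to 9166 for Tdgf1. Tdgf1-ps2, another copy, was at 0 to 0.175 FPKM, at most 1 read.

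Acvr2b (ENSMUSG00000061393, chr9:119402118-119434995), a type II receptor for Activin and Nodal, stood above 56.8% of the tested genes in mean FPKM. Delta libraries had 3.63 and 10.3 FPKM of Acvr2b at 0 h, 8.88 and 6.99 at 12 h, and 11.1 and 12.6 at 24 h. In WT cells Acvr2b stood at 5.18 and 5.82 FPKM at 0 h, 10.8 and 7.54 at 12 h, and 11.4 and 8.86 at 24 h. Both libraries at 24 h lay above both at 0 h in each genotype. The log2 difference was 0.83 ± 0.37 in delta (limma adjusted p = 0.17) and 0.77 ± 0.37 in WT (adjusted p = 0.25), which missed the threshold. In delta it was 1.47 without delta 0 h replicate 2 and 0.19 without delta 0 h replicate 1. Either fit left 1 library in the delta 0 h group. The lowest value, 3.63 FPKM, rested on 57 reads. The annotated antisense gene Gm47320 overlaps Acvr2b and shares 0 exon bases with it.

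Of the receptor-activated transducers, Smad2 (ENSMUSG00000024563) was the steadiest of the 10 genes: its highest library was 1.48 times its lowest. Delta cells had 18.3 and 12.4 FPKM of Smad2 at 0 h, 15.1 and 14.1 at 12 h, and 16.3 and 17.0 at 24 h. WT cells had 15.9 and 14.6 FPKM at 0 h, 14.9 and 13.6 at 12 h, and 17.6 and 15.4 at 24 h. The groups overlapped between 0 and 24 h, with a log2 difference of 0.13 ± 0.20 in delta (limma adjusted p = 0.69) and 0.11 ± 0.20 in WT (adjusted p = 0.79).

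Smad3 (ENSMUSG00000032402, chr9:63646767-63757994, minus strand) was the lower of the 2 transducers and the lowest of the 10 genes. Its levels in delta cells were 2.33 and 7.18 FPKM at 0 h, 2.69 and 4.01 at 12 h, and 1.64 and 2.30 at 24 h. In WT cells Smad3 stood at 2.67 and 8.63 FPKM at 0 h, 3.30 and 4.77 at 12 h, and 1.79 and 3.28 at 24 h. Within each same-numbered set the 24 h library was the lowest of the 3 times, but replicate 2 was higher than replicate 1 in all 6 groups, so that WT 24 h and WT 0 h overlapped, while in delta both 24 h libraries lay below both at 0 h. The log2 difference at 24 h was −0.82 ± 0.52 in delta (limma adjusted p = 0.32) and −0.78 ± 0.52 in WT (adjusted p = 0.41). Without both 0 h replicate 1 libraries the difference was −1.47 in delta and −1.48 in WT. Each 0 h group then held 1 library, which the fit assumes to vary like the rest.

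Lefty1 and Lefty2, the secreted antagonists, ended in the opposite order from the one they began in. In delta cells Lefty1 stood at 37.7 and 5.63 FPKM at 0 h, 31.0 and 13.0 at 12 h, and 120 and 84.2 at 24 h. In WT cells Lefty1 stood at 34.7 and 2.14 FPKM at 0 h, 25.1 and 7.06 at 12 h, and 67.5 and 57.3 at 24 h. All 24 h libraries were above every library at 0 and 12 h of their genotype, and the replicates at 0 h were far apart. The gap between them was 2.55 log2 units in delta and 3.51 in WT, larger than that of 99.7% and 99.9% of tested genes, and the lowest library held 49 reads. The log2 difference from 0 to 24 h was 2.67 ± 1.14 in delta (limma adjusted p = 0.15) and 2.58 ± 1.14 in WT (adjusted p = 0.21), and did not pass. With the replicate number as a block Lefty1 passed in delta (adjusted p = 0.028) and in WT (adjusted p = 0.041). Without both 0 h replicate 1 libraries (1 library left in each 0 h group) the difference was 3.94 in delta and 4.33 in WT. Without WT 0 h replicate 2 it was 0.82 in WT, and without delta 0 h replicate 2 it was 1.39 in delta.

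Lefty2 was the more abundant of the pair at 0 h. Lefty2 in delta cells was at 139 and 41.9 FPKM at 0 h, 55.9 and 36.7 at 12 h, and 51.1 and 28.3 at 24 h. In WT cells Lefty2 stood at 121 and 14.025 FPKM at 0 h, 64.8 and 22.8 at 12 h, and 60.8 and 20.3 at 24 h. Replicate 1 was the higher library in all 6 groups, and the 0 and 24 h groups overlapped in both genotypes. The log2 difference at 24 h was −0.99 ± 0.99 in delta (limma adjusted p = 0.54) and −0.24 ± 0.99 in WT (adjusted p = 0.92). Without both 0 h replicate 1 libraries, which leaves 1 library in each 0 h group, the WT difference was 1.27.

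Within a library, Lefty1 was the lower of the pair at 0 and 12 h and the higher at 24 h. The ratio of Lefty1 to Lefty2 FPKM in delta cells was 0.271 and 0.134 at 0 h, 0.554 and 0.353 at 12 h, and 2.36 and 2.97 at 24 h. In WT cells the ratio was 0.286 and 0.153 at 0 h, 0.388 and 0.310 at 12 h, and 1.11 and 2.82 at 24 h. It was below 1 in all 8 libraries at 0 and 12 h and above 1 in all 4 at 24 h, and it was higher at each later time in all 4 same-numbered sets. This ratio was formed after the values were seen and was not tested.

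**Figure D2:**
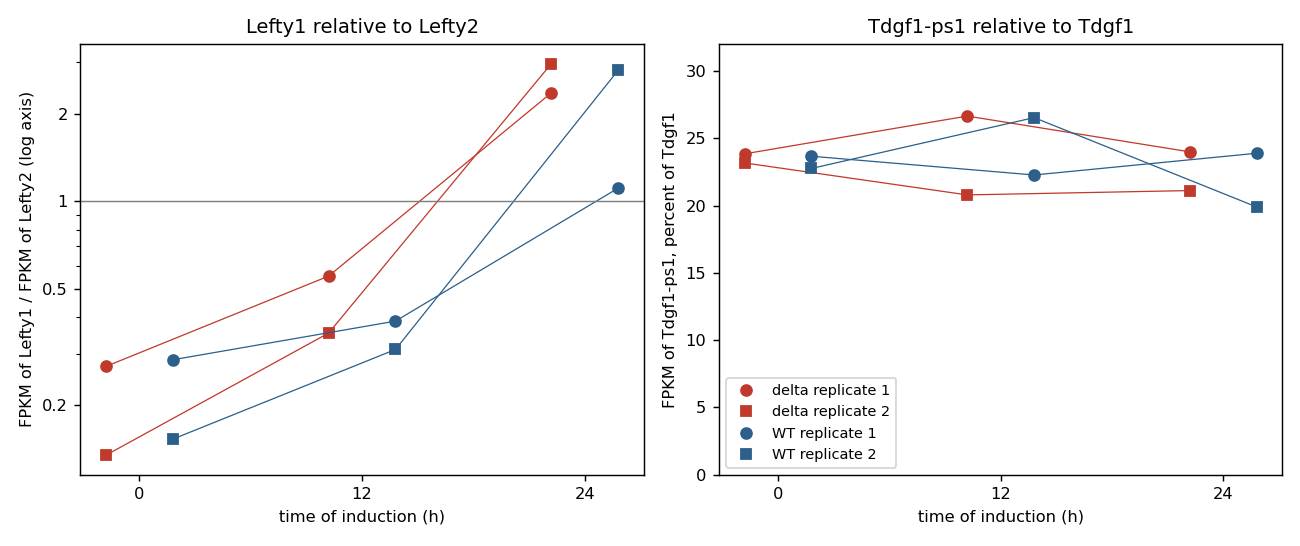
Left, FPKM of Lefty1 divided by FPKM of Lefty2 (log axis) in each library against the time of induction in hours, with a grey line at 1; right, FPKM of the pseudogene Tdgf1-ps1 as a percent of that of Tdgf1. Red is delta, blue is WT, circles are replicate 1 and squares replicate 2; the Lefty ratio is above 1 in the 4 libraries at 24 h only, and the pseudogene stays between 19.9% and 26.6%.

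Smad7 (ENSMUSG00000025880) encodes an inhibitory SMAD that blocks the receptors and is itself induced by TGF-beta signals. Delta libraries held 11.5 and 26.4 FPKM of Smad7 at 0 h, 26.9 and 24.0 at 12 h, and 18.9 and 17.3 at 24 h. In WT cells Smad7 stood at 15.1 and 25.1 FPKM at 0 h, 31.3 and 25.2 at 12 h, and 18.5 and 16.2 at 24 h. Every library at 24 h lay below both of its genotype at 12 h, by a log2 difference of −0.47 ± 0.35 in delta (limma adjusted p = 0.89) and −0.67 ± 0.35 in WT (adjusted p = 0.82), neither of which passed. From 0 to 12 h it differed by 0.51 ± 0.35 in both genotypes (limma adjusted p = 0.40 in delta and 0.50 in WT). In delta this was 1.08 without delta 0 h replicate 2 and −0.05 without delta 0 h replicate 1. Either fit left 1 library in the delta 0 h group. From 0 to 24 h replicate 1 was higher and replicate 2 lower in both genotypes, and the log2 difference was 0.04 ± 0.35 in delta (adjusted p = 0.95) and −0.16 ± 0.35 in WT (adjusted p = 0.83).

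Skil (ENSMUSG00000027660, chr3:31095058-31122577) was higher at each later time in both genotypes. Delta cells had 4.61 and 6.58 FPKM of Skil at 0 h, 9.96 and 6.97 at 12 h, and 30.9 and 26.0 at 24 h. In WT cells Skil stood at 6.16 and 1.55 FPKM at 0 h, 10.1 and 4.62 at 12 h, and 23.8 and 16.7 at 24 h. All 24 h libraries lay above every earlier library of their genotype, and at 12 h each library lay above the 0 h library of its number. The log2 difference from 0 to 24 h was 2.17 ± 0.48 in delta (limma adjusted p = 0.017) and 2.29 ± 0.48 in WT (adjusted p = 0.017). Over all alternative fits it lay between 1.95 and 2.39 in delta (adjusted p = 0.0049 to 0.10) and between 1.55 and 3.04 in WT (adjusted p = 0.0037 to 0.13). The call was lost in delta without delta 0 h replicate 1 (adjusted p = 0.061), delta 24 h replicate 1 (0.10) or delta 24 h replicate 2 (0.081), and in WT without WT 0 h replicate 2 (0.071), WT 24 h replicate 1 (0.13) or WT 24 h replicate 2 (0.057). The larger part of the rise came after 12 h, at 1.65 ± 0.48 in delta (adjusted p = 0.19) and 1.41 ± 0.48 in WT (adjusted p = 0.39).

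**Figure D3:**
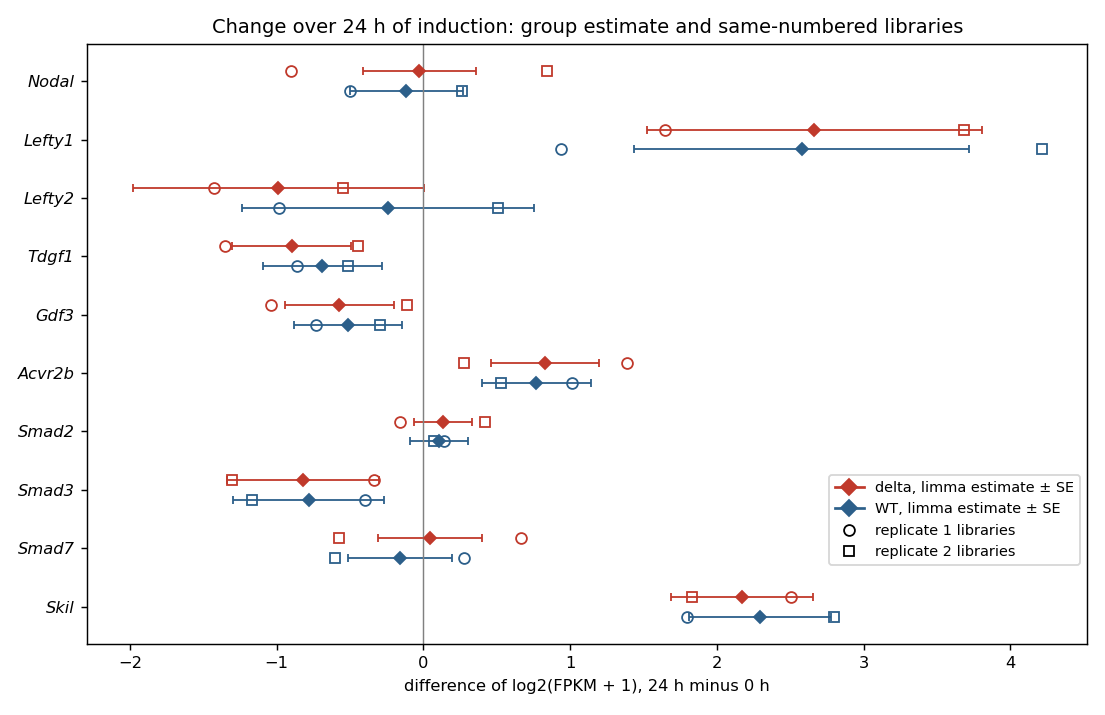
Difference of log2(FPKM + 1) between 24 h and 0 h for the 10 pathway genes; diamonds with bars are limma estimates ± SE (red delta, blue WT), open circles are the difference between replicate 1 libraries and open squares that between replicate 2 libraries. Skil is at 2.17 in delta and 2.29 in WT with both sets of libraries above 1, while for Nodal and Smad7 the numbered sets fall on opposite sides of 0.

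The second question was whether the deletion of the Tcf15 region altered the pathway genes. None of the 10 was called between delta and WT cells at 0 h, 12 h or 24 h or averaged over times (limma adjusted p = 1 for each), where 0.00715%, 0.0143%, 0.00715% and 0.0143% of all tested genes were called. The change over induction did not differ between genotypes past the threshold for any of the 10 at 12 or 24 h (interaction, adjusted p = 1), nor for any tested gene, 0% being called. Without the block, the count at an unadjusted p under 0.05 was also 0 of 10 in each of these 6 comparisons. The share of all tested genes at that threshold was 2.02% at 0 h, 0.887% at 12 h, 1.53% at 24 h, 4.33% averaged over times, and 0.615% and 0.987% for the interactions at 12 and 24 h. The fit with voom weights called 0 of 10. With the replicate number as a block none of the 10 passed either. Averaged over times, limma adjusted p was then 0.69 for Tdgf1, the lowest, to 0.99 for Smad2, the highest. The errors that follow are those of the fit without the block, so they include the spread between replicate numbers. The averaged differences and their errors were 0.61 ± 0.66 for Lefty1, 0.44 ± 0.28 for Skil, 0.40 ± 0.57 for Lefty2, 0.32 ± 0.23 for Tdgf1, 0.22 ± 0.22 for Nodal, 0.19 ± 0.21 for Gdf3, 0.06 ± 0.21 for Acvr2b, 0.01 ± 0.11 for Smad2, −0.07 ± 0.20 for Smad7 and −0.21 ± 0.30 for Smad3 (log2, SE).

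Some genes nevertheless kept 1 sign between libraries of the same time and number. Tdgf1 was higher in delta in 6 of 6 such pairs, by 0.14 to 0.63 log2 units, and Lefty1 was higher in 6 of 6, by 0.12 to 1.08. Smad3 was lower in delta in 6 of 6, by 0.08 to 0.37. Over all tested genes 6.84% were higher in all 6 pairs and 7.01% were lower in all 6, beside 2 and 1 of these 10; nothing further is read from them. Nodal was higher in 5 of 6 pairs, Lefty2, Gdf3, Smad2 and Skil in 4, Smad7 in 3 and Acvr2b in 2. Both delta libraries lay above both WT libraries for Nodal, Tdgf1 and Gdf3 at 12 h, where 16.8% of all genes did so, and for Lefty1 and Skil at 24 h, where 14.3% did so. None of the 10 lay below in both at 12 h (15.2% of all genes) or 24 h (16.4%), and at 0 h all 10 overlapped (6.52% of all genes higher, 6.21% lower). Fibroblast and feeder markers, at 19.8 to 46.6 summed FPKM in the WT replicate 1 libraries and 1.76 to 6.90 in the other 9, moved with genotype within replicate 1, and their part in these differences was not tested.

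**Figure D4:**
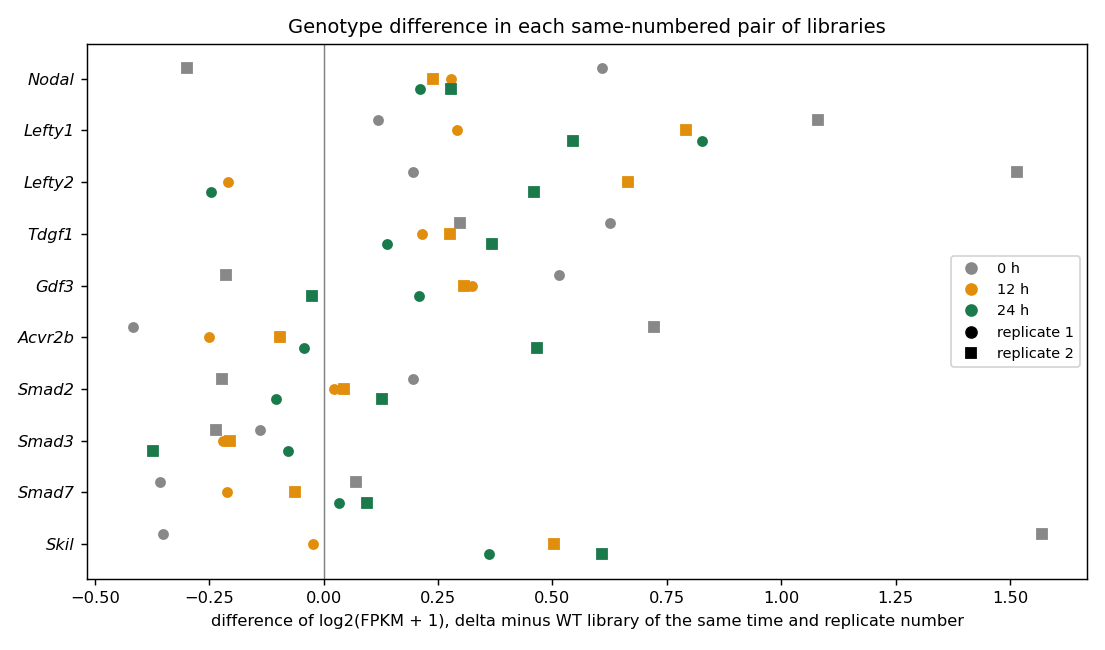
Difference of log2(FPKM + 1), delta minus WT, in each pair of libraries of the same time and replicate number, for the 10 pathway genes; colours give the time, circles replicate 1 and squares replicate 2. Lefty1 and Tdgf1 lie above 0 and Smad3 below 0 in all 6 pairs, and the widest spread is at 0 h.

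Of 43 further pathway genes, listed by role, 29 passed the filter. The list of ligands and their processing enzymes had 4 of 10 tested, receptors 5 of 7, SMAD4 with its cofactors 6 of 6, inhibitors 10 of 13, and targets of the primitive streak and endoderm 4 of 7. Acvr1c, which encodes another type I receptor, and the ligand gene Gdf1 were listed at 0 in every library. From 0 to 24 h, 2 of the 29 rose and 3 fell in delta cells (all genes, 7.58% and 7.8%), and 1 rose and 3 fell in WT cells (5.27% and 4.94%). By 12 h, 2 rose (Inhbb and Foxh1; all genes, 3.55%) and 2 fell (Fst and T; 3.45%) in delta cells, and 2 rose (Inhbb and Smad6; 2.13%) and 3 fell (Fst, Gsc and T; 1.9%) in WT cells. Between genotypes limma called none at any time or averaged over times. At an unadjusted p under 0.05 there were 0 at 0 h, 0 at 12 h and 2 (Inhbb and Smad6) at 24 h. The shares of all tested genes were 2.02%, 0.887% and 1.53%. Averaged over times the same 2 were under that threshold, beside 4.33% of all tested genes. Gsc in delta at 24 h, Acvr1c, Gdf1, Smad4 and Acvr1b were named after their values were seen, as were the genes whose call the block adds.

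Several of these calls were narrow. The replicate number was also used as a block. In delta cells the counts that rose and fell were then 3 and 3 at 12 h and 3 and 4 at 24 h. Of all tested genes 11.5% and 21.2% were called there in either direction. In WT cells the counts were 2 and 4 at 12 h and 3 and 4 at 24 h. Beside them 7.07% and 15% of all tested genes were called. In delta the block added Smad6 and Gsc at 12 h (limma adjusted p = 0.022 for each). At 24 h it added Pcsk6, a proprotein convertase gene (−1.31, adjusted p = 0.028), and Tgif2, a co-repressor gene (0.67, adjusted p = 0.036). In WT it added Tgfbr3, a co-receptor gene, at 12 h (−0.89, adjusted p = 0.037) and 24 h (−0.82, adjusted p = 0.029). It also added Foxh1 (adjusted p = 0.041) and Pmepa1, an inhibitor gene (0.65, adjusted p = 0.044), at 24 h in WT. Without both 0 h replicate 1 libraries each 0 h group held 1 library, so counts from that fit are not given. Among the 12 fits that left out 1 library, the 12 h call in delta was lost in 9 for Foxh1 (adjusted p up to 0.30; also 0.061 with voom weights and 0.051 without the variance trend). It was lost in 5 for Inhbb (up to 0.20; also 0.069 with quantile normalization). Fst and T lost theirs without delta 12 h replicate 1 (0.070 and 0.11) or replicate 2 (0.062 and 0.076). In WT the 12 h call was lost in 9 for Gsc (up to 0.25; also 0.052 with a pseudocount of 0.1 and 0.083 without the filter). Inhbb and T each lost it in 4, without any of the WT libraries at 0 and 12 h (up to 0.11), and Fst without WT 12 h replicate 1 (0.081). Inhbb reached the filter's 1 FPKM only in the 4 WT libraries at 12 and 24 h, Gsc and T only in the 4 libraries at 0 h, and Tgfbr3 only in 2 of those. These 4 genes were tested only because of the groups in which they were high. Their place in the counts supports nothing further.

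Fst encodes follistatin, a secreted protein that binds and neutralises Activin, and it fell in both genotypes. In delta cells Fst stood at 15.7 and 14.6 FPKM at 0 h, 4.84 and 4.81 at 12 h, and 2.70 and 2.68 at 24 h. In WT cells it stood at 13.8 and 16.1 FPKM at 0 h, 3.79 and 5.74 at 12 h, and 1.97 and 3.21 at 24 h. The groups did not overlap, and the log2 difference at 24 h was −2.13 in delta (limma adjusted p = 0.00043) and −2.17 in WT (adjusted p = 0.00054), a call that held with every library left out in turn.

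T (brachyury), a transcription factor gene of the primitive streak and nascent mesoderm, also fell. It stood at 6.74 and 40.9 FPKM at 0 h, 0.416 and 0.783 at 12 h, and 0.112 and 0.134 at 24 h in delta cells, and at 13.6 and 21.1, 0.993 and 0.260, and 0.101 and 0.152 FPKM at the same times in WT cells. The log2 difference at 24 h was −4.00 in both genotypes (limma adjusted p = 0.0031 in delta and 0.0043 in WT). T passed the filter only through its 0 h libraries, where it was high, so these p-values do not support the fall. Gsc (goosecoid), a homeobox gene of the streak and the organizer, was at 1.67 and 2.87 FPKM at 0 h and at 0 and 0.0610 at 24 h in delta cells, and at 2.41 and 8.23 FPKM at 0 h and listed at 0 in both libraries at 24 h in WT cells. Its log2 difference at 24 h was −1.64 in delta (limma adjusted p = 0.029) and −2.49 in WT (adjusted p = 0.0059). Gsc too passed the filter only through its 0 h libraries, so these p-values do not support the fall. In delta the call was lost without any of 5 delta libraries (adjusted p = 0.051 to 0.14) and without the filter on low values (0.061).

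Foxh1, the DNA-binding partner of SMAD2 and SMAD3, was 32.5 and 33.6 FPKM at 0 h, 53.3 and 49.7 at 12 h, and 63.6 and 60.3 at 24 h in delta cells. In WT cells Foxh1 was 37.6 and 43.8 FPKM at 0 h, 54.2 and 51.2 at 12 h, and 58.4 and 61.3 at 24 h. All later libraries lay above those at 0 h. The log2 difference at 24 h passed in delta (0.89, limma adjusted p = 0.0055) and was 0.55 in WT, where it passed with the replicate block (adjusted p = 0.041) and not without it (0.057); leaving out delta 24 h replicate 1 ended the delta call (adjusted p = 0.058). Trim33, whose product binds SMAD2 and SMAD3, was at 17.4 and 17.3 FPKM at 24 h, against 5.69 and 9.89 at 0 h, in delta cells, and at 15.7 and 12.4 FPKM at 24 h, against 7.29 and 9.90 at 0 h, in WT cells. It differed by 1.11 in delta (adjusted p = 0.019) and 0.65 in WT (adjusted p = 0.15), and the delta call was lost without delta 0 h replicate 1 (0.053), delta 24 h replicate 1 (0.10) or delta 24 h replicate 2 (0.11). The difference between genotypes in these changes did not pass for Foxh1 or Trim33 (interaction, adjusted p = 1).

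Inhbb, which encodes the beta-B chain of Activin, stayed low: it stood at 0.157 and 0.0937 FPKM at 0 h, 0.962 and 0.921 at 12 h, and 0.580 and 0.654 at 24 h in delta cells, and at 0.186 and 0.162, 1.20 and 1.46, and 1.61 and 1.16 FPKM at the same times in WT cells. The 24 h difference was 1.02 log2 units in WT (limma adjusted p = 0.0070) and 0.52 in delta (adjusted p = 0.081). The WT call was lost without WT 24 h replicate 1. Inhbb passed the filter only through the WT libraries at 12 and 24 h, where it was high. These p-values therefore do not support a rise or a difference between genotypes. Smad6, the other inhibitory SMAD gene, named after its values were seen, was highest at 12 h: 0.835 and 1.47 FPKM at 0 h, 2.98 and 3.33 at 12 h, and 0.932 and 1.11 at 24 h in delta cells, and 1.02 and 2.32, 4.11 and 5.25, and 2.22 and 2.17 FPKM in WT cells. At 12 h it passed in WT (1.13, limma adjusted p = 0.049), a call lost in 9 of the 12 fits that left out a library (adjusted p up to 0.25). In delta it was 0.96 (adjusted p = 0.062). With the replicate block Smad6 passed at 12 h in both genotypes (adjusted p = 0.022 in delta and 0.016 in WT), and its log2 difference from 12 to 24 h in delta, −1.04, passed as well (adjusted p = 0.042). Smad4, the partner shared by SMAD2 and SMAD3, was at 21.9 to 30.5 FPKM in all 12 libraries, and the type I receptor gene Acvr1b had a log2 difference at 24 h of −0.69 in delta (adjusted p = 0.29) and −0.81 in WT (adjusted p = 0.27).

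The genes whose log2(FPKM + 1) followed that of a pathway gene most closely over the 12 libraries were found among 7024 genes with a mean of at least 5 FPKM. For Skil they were Zcchc3 (Pearson r = 0.98), Epcam (0.97) and Il17d (0.97), and for Lefty1 they were Stag2 (0.96), Ube2g1 (0.95) and Acsl4 (0.95). For Lefty2 they were Sh3bgrl (0.97), Lbr (0.96) and Tgfbr1 (0.95), for Tdgf1 they were Mphosph10 (0.99), Mtfp1 (0.99) and Ddx20 (0.98), and for Nodal they were Gpn3 (0.97), Rab40c (0.91) and Mettl6 (0.91). Among the 10 genes themselves the highest positive coefficients were those of Lefty1 with Skil (r = 0.87) and Tdgf1 with Gdf3 (r = 0.85), and the coefficient farthest from 0 was that of Lefty1 with Smad3 (r = −0.95). These coefficients share libraries, time groups and the split between replicates at 0 h, and are given as descriptions.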

How the data were processed

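The authors deposited FPKM values for 47729 genes, 1 column per library; per the submitters' processing notes, cutadapt, STAR 2.5.2b, featureCounts 1.5.1, edgeR 3.16.5 and mm10 were used, without role or order. RNeasy Plus columns, oligo-dT selection and the NEBNext Ultra II kit were used to make libraries, per the labels' protocols. Read length, use of strand and treatment of reads that match several genes are not given in the sources used here.

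Genes with at least 1 FPKM in at least 2 libraries (13981) were fitted on log2(FPKM + 1) with limma 3.58.1 (R 4.3.3): 1 mean per group, no further scaling, a mean-variance trend, and 6 residual and 3.11 prior degrees of freedom. Two-sided p-values of each of 12 contrasts were adjusted by Benjamini-Hochberg over all genes tested and called under 0.05. SE is that of the model. Whole reads were recovered from the FPKM steps for 100% of 28657 genes (tolerance 0.01; 80.1% with the annotated length), and served for depth and for a fit with voom weights. The scripts were tested on simulated data. Sequences and positions came from GENCODE M21 (GRCm38), read with biopython 1.88 in Python 3.11.15, numpy 2.4.6 and pandas 2.3.3; figures used matplotlib 3.10.9.

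Replicate numbers come from the titles. Deviations of same-numbered libraries correlated at 0.26 to 0.70 in all 9 pairs of groups that were compared, and at −0.07 between delta 0 h and WT 12 h, which were not compared. The numbers were taken to pair the libraries, and values with the replicate number as a block are given where they change a call.

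The pathway genes, the lists and the markers were chosen with earlier results of these data known. Named genes were all 10, up to 4 called genes per contrast with the smallest adjusted p among the 43 other pathway genes, the 3 genes most alike in profile for Nodal, Lefty1, Lefty2, Tdgf1 and Skil (mean of at least 5 FPKM, no predicted symbol), and Tcf15. 1 further gene of the list of targets is not reported here.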

Additional observations from a re-analysis of the deposited data

How the results depend on the processing

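Of the 10 genes, the number called did not move in 8 of the 12 contrasts under any of 20 alternatives. With the replicate block it was 3 in delta and 2 in WT for 24 h against 0 h. For 12 h against 0 h in delta it was 1. Of all tested genes 21.2%, 15% and 11.5% were then called. For 24 h against 12 h in delta the number moved only without both 0 h replicate 1 libraries. Each 0 h group then held 1 library, so counts from that fit are not given. With a library left out in turn it was 0 to 4 for 24 h against 0 h in delta, 0 to 2 in WT, and 0 to 4 for 12 h against 0 h in delta. Each of these fits left 1 library in a group. Both counts of 4 came from the fit without delta 0 h replicate 2. In both comparisons that fit also called a larger share of all tested genes than the fit with all libraries. The counts of 4 are therefore not read as a property of the pathway genes. The block changed no other call of the 10. Over all tested genes the block gave 2969 calls in delta and 2091 in WT at 24 h. Without it there were 2151 (15.4%) and 1427 (10.2%).

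Signs turned only for differences not called in the fit as described. For 24 h against 0 h, Nodal in WT was 0.019 with quantile normalization and 0.11 without both 0 h replicate 1 libraries, and in delta 0.0084 with median centring, 0.20 with quantile normalization, 0.65 without both 0 h replicate 1 libraries and 0.0059 with voom weights. Lefty2 in WT was 0.0032 with quantile normalization and 1.27 without both 0 h replicate 1 libraries, and without those libraries Gdf3 in delta was 0.055 and Smad7 in delta −0.52 (−0.052 at 12 h). Smad2 averaged over times was −0.0052 with quantile normalization and −0.059 without those libraries. With a library left out in turn, the 24 h difference ran from −0.35 to 0.11 (Nodal), −1.75 to 1.27 (Lefty2) and −0.51 to 0.19 (Smad7) in WT. In delta it ran from −0.71 to 0.65 (Nodal), −1.20 to 0.055 (Gdf3), −0.13 to 0.40 (Smad2) and −0.52 to 0.61 (Smad7; −0.052 to 1.08 at 12 h). The difference averaged over times ran from −0.0079 to 0.45 (Nodal), −0.11 to 0.90 (Lefty2), −0.024 to 0.40 (Gdf3), −0.15 to 0.28 (Acvr2b), −0.078 to 0.098 (Smad2), −0.44 to 0.023 (Smad3) and −0.26 to 0.12 (Smad7). The cause was not tested. With 2 libraries per group, Lefty1 differences of 2.67 (delta) and 2.58 (WT) log2 units at 24 h missed the threshold without the block and passed with it.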
